A study of Mus musculus with 16 samples.

Results

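The genes described are 31 cadherins and non-clustered protocadherins, taken by symbol from a list of the family and read on mouse cells sorted by a parvalbumin reporter. They are 31 of the 30142 genes that the array annotation names with a transcript cluster of their own. The list holds 14 classical cadherins, 8 delta protocadherins, the membrane-anchored Cdh13, Pcdh20, the 3 Celsr genes, 3 Fat genes and Dchs1. Each member had 1 transcript cluster, and none of the 31 was lost to the filter on low levels.

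The cells carried the red reporter tdTomato and came from C57BL/6J mice aged 30 days that the labels give as male. In the PVCre line (PVCre/+; tdTomato/+), a Cre recombinase driven by the parvalbumin gene switched the reporter on. The PV-tdTomato line (PV-tdTomato/+) carried the reporter without Cre. Dorsal striatum was compared with motor and somatosensory cortex in both lines. Each of the 4 combinations of line and region had 4 arrays, and each array held 2000 sorted cells pooled from several mice. In the PVCre line a cell stays marked once Cre has acted, whereas PV-tdTomato marks only cells in which the transgene is active. All values are log2 levels made by RMA, so differences are on the log2 scale.

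Cadherins are calcium-dependent adhesion proteins of the cell surface. Classical cadherins bind their like on a neighbouring cell and are tied to the actin skeleton by catenins. Combinations of type II cadherins mark groups of neurons and their synapses in the developing brain. Delta protocadherins adhere more weakly, and several of them act through the WAVE complex, a regulator of actin branching. Celsr proteins are seven-pass cadherins of the planar polarity pathway that guide axon tracts. Fat4 and Dchs1 form a ligand and receptor pair between cells.

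The sorted cells did not carry parvalbumin RNA at a like level on every array. Pvalb lay between 6.7 and 8.4 on 6 arrays (PV-tdTomato striatum 3 and 4, PV-tdTomato cortex 3 and 4, PVCre cortex 2 and 4) and between 10.2 and 12.48 on the other 10. Means over the markers of mature oligodendrocytes were 14.71 to 15.65 on all 8 PVCre arrays and on PV-tdTomato replicates 3 and 4 of either region, against 12.85 to 13.36 on PV-tdTomato replicates 1 and 2. The mean over 10 markers of parvalbumin interneurons ran from 7.01 to 12.13 and lay below the oligodendrocyte mean on every array. Member levels are therefore those of the sorted pools and not of parvalbumin interneurons alone. Xist, a transcript of the inactive X chromosome, was above 12 on 8 arrays and under 7 on the other 8, although the labels give male mice. Array medians lay between 5.97 and 6.13, and the 23 background probe sets averaged 2.95 to 6.10, so member levels near 6 were close to background. In pooled cells, fewer cells of a type and less RNA per cell cannot be told apart.

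**Figure D1:**
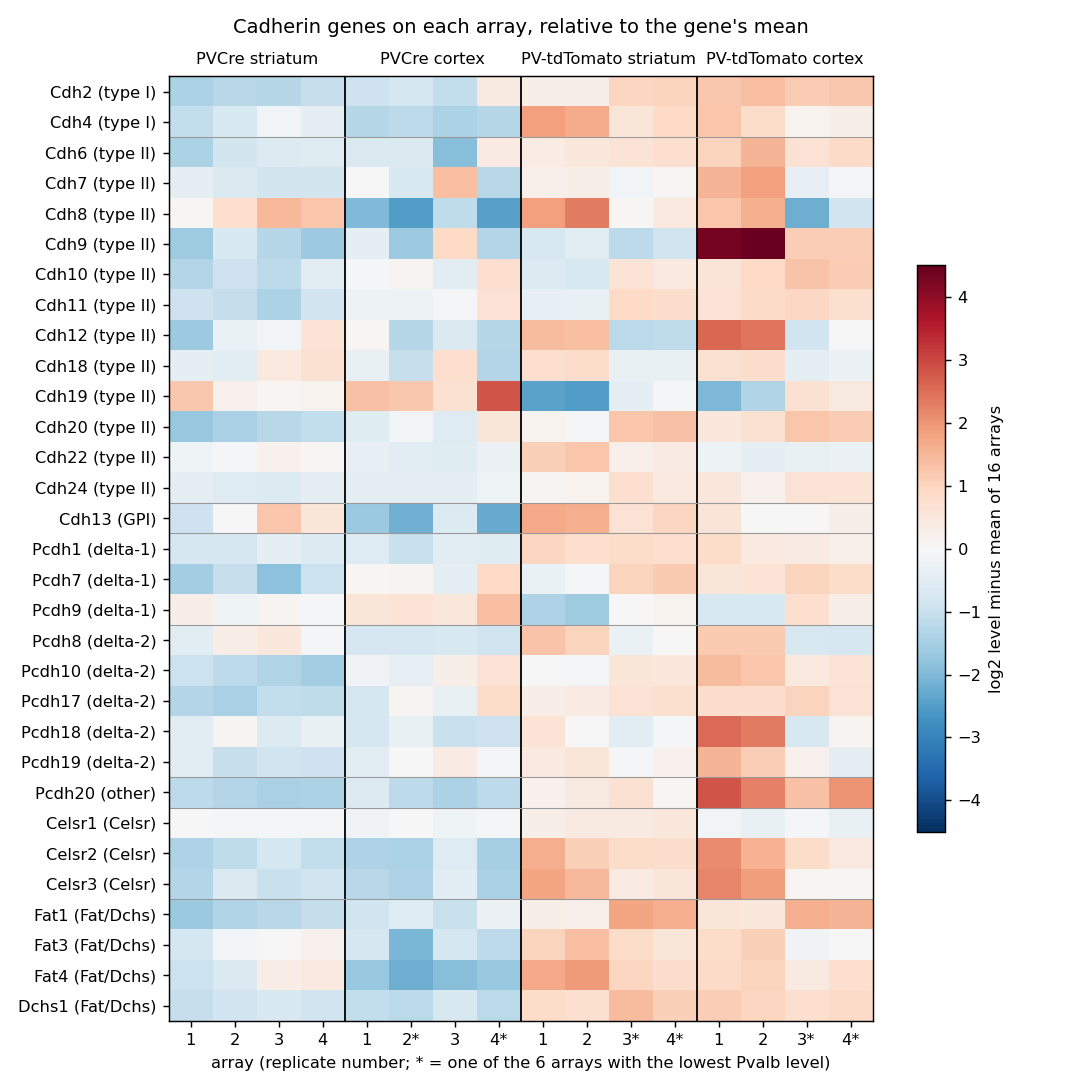
Level of each of the 31 members on each of the 16 arrays, as the log2 level minus the mean of that gene over all arrays, with members in rows by subfamily and arrays in columns by group. Asterisks mark the 6 arrays with the lowest Pvalb, and most members are lower on the 8 PVCre arrays than on the 8 PV-tdTomato arrays, while Cdh19 is the opposite.

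Promoters are shown for the 3 members with the largest called region differences in a single line among those with a promoter in the table, chosen after their values were seen: Cdh9 and Pcdh20, lower in PV-tdTomato striatum, and Cdh8, higher in PVCre striatum. The windows are the 250 bases before a start listed for each gene in GRCm38.p6, written 5′ to 3′ on the strand of the gene. They are chr15:16728665-16728914 on the plus strand for Cdh9, chr14:88471397-88471646 on the minus strand for Pcdh20 and chr8:99416472-99416721 on the minus strand for Cdh8. Those of Cdh9 and Cdh8 lie inside the RefSeq genes (chr15:16728550-16857138 and chr8:99024471-99417666), so these starts are not the outermost ones. The Pcdh20 window adjoins its gene, chr14:88464743-88471396. Capitals mark the letters CCAAT, the box bound by the general factor NF-Y.
Cdh9: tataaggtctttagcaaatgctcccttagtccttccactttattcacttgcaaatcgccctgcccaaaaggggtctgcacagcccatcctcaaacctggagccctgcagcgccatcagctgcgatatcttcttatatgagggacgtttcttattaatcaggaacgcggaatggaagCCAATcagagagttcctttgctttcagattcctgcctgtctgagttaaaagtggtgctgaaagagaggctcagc
Pcdh20: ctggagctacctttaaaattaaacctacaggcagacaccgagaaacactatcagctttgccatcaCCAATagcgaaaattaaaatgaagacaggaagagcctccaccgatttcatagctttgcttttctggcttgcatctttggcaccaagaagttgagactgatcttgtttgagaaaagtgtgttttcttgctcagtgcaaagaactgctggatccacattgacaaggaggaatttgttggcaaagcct
Cdh8: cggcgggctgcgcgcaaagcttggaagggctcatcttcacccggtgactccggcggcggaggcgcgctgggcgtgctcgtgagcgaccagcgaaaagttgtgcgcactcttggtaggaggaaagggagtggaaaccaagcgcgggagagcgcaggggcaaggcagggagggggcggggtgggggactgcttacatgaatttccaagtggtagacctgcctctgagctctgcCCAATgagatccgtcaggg
The box began 74 bases before the start in Cdh9, 185 in Pcdh20 and 19 in Cdh8. CCAAT was found on one strand or the other in 12 of the 23 members with a promoter in the table (26 windows, 2 members having several), and in 33.85% of all 32851 promoters of that length. The remaining motifs were also searched on both strands. TAATTA, a homeodomain core, was in 1 member (Cdh7) and in 4.84% of all promoters, and AGGTCA, a nuclear receptor half-site, was in 1 member (Cdh18) and in 14.02%. The windows of Cdh9 and Pcdh20 held 48.0% and 42.4% G and C, below the median of 58.0% over the 23 members (the windows of a member averaged), and that of Cdh8 held 64.4%. All promoters had a median of 52.4%.

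Across both lines, 12 of the 31 members differed between striatum and cortex in limma at an adjusted p under 0.05, 5 of them higher and 7 lower in striatum, where 4.32% of all genes tested were called, 3.37% higher and 0.955% lower. Of all genes called, 77.9% were higher in striatum, and 67.1% when arrays were centred on their medians, which left the member counts as they were. Cdh8, Cdh22, Cdh13, Celsr1 and Fat4 were higher in striatum. Cdh9, Cdh10, Cdh11, Pcdh7, Pcdh10, Pcdh17 and Pcdh20 were lower. The count of 12 was 7 without PV-tdTomato striatum replicate 1 or 2. The median log2 difference was -0.31 over the members and 0.0 over all genes. Markers of other cells also moved with region: all 6 ependymal markers were higher in striatum in both lines, with means of 10.61 to 12.15 in PVCre striatum against 6.13 to 6.73 in PVCre cortex, and of 8.92 to 10.2 in PV-tdTomato striatum against 5.78 to 5.86 in PV-tdTomato cortex. Their part in the member differences was not tested.

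Among the type II cadherins, Cdh8 was higher in striatum over both lines. It read 8.61, 9.27, 9.99 and 9.77 in PVCre striatum, against 6.54, 6.01, 7.38 and 6.07 in PVCre cortex. In PV-tdTomato cells Cdh8 read 10.36, 10.81, 8.58 and 8.96 in striatum, against 9.77, 10.1, 6.31 and 7.66 in cortex. The PVCre groups did not overlap and the PV-tdTomato groups did, with replicates 1 and 2 high in both regions and replicates 3 and 4 low in both. The log2 difference of Cdh8 was 2.06 over both lines (SE 0.52, adjusted p = 0.036, 4.18-fold), 2.91 in PVCre (SE 0.74, adjusted p = 0.04) and 1.22 in PV-tdTomato (adjusted p = 0.85). At each of the 4 replicate numbers striatum was higher in PV-tdTomato, and the fit with that number as a block gave adjusted p = 0.1. The call over both lines was lost in 9 of 16 fits with 1 array left out (adjusted p up to 0.085), and the PVCre call in 7 (up to 0.12).

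Cdh9, a type II cadherin that in mice takes part in the synapses of the hippocampus, had the opposite pattern. It read 6.24, 7.18, 6.55 and 6.22 in PVCre striatum, against 7.4, 6.23, 8.75 and 6.53 in PVCre cortex. In PV-tdTomato cells Cdh9 read 7.13, 7.38, 6.68 and 6.96 in striatum, against 12.14, 12.28, 8.95 and 8.95 in cortex. All 4 PV-tdTomato cortex arrays were above all 4 PV-tdTomato striatum arrays, and cortex replicates 1 and 2 were far above cortex replicates 3 and 4. Cdh9 had a log2 difference of -3.54 in PV-tdTomato (SE 0.74, adjusted p = 0.015, 11.7-fold) and -2.11 over both lines (SE 0.52, adjusted p = 0.031). In PVCre it was -0.68 (adjusted p = 0.7) and the groups overlapped. Without PV-tdTomato cortex replicate 1 or 2, the call in PV-tdTomato was lost, at an adjusted p of at most 0.057. Over both lines, the call on Cdh9 was lost in 11 of the 16 fits with 1 array left out (adjusted p up to 0.067).

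Cdh10 and Cdh11 were lower in striatum. Cdh10 read 8.74, 9.12, 8.86 and 9.53 in PVCre striatum, against 9.99, 10.18, 9.53 and 10.81 in PVCre cortex. In PV-tdTomato cells Cdh10 read 9.45, 9.33, 10.68 and 10.51 in striatum, against 10.63, 10.96, 11.32 and 11.21 in cortex. The ranges met in PVCre and overlapped slightly in PV-tdTomato, and in PV-tdTomato each striatum array was lower than the cortex array of its number. For Cdh10 the log2 difference was -1.05 over both lines (SE 0.23, adjusted p = 0.016), and it stayed called in all 16 fits with 1 array left out. It was -1.06 in PVCre (adjusted p = 0.1) and -1.04 in PV-tdTomato (adjusted p = 0.19). In PV-tdTomato a fit with the replicate number as a block gave adjusted p = 0.016, although the numbers were not shown to pair the arrays. Cdh11, a cadherin also found in mesenchymal cells, read 11.24, 11.08, 10.75 and 11.31 in PVCre striatum, against 11.92, 11.95, 12.07 and 12.82 in PVCre cortex. In PV-tdTomato cells Cdh11 read 11.81, 11.82, 13.05 and 12.97 in striatum, against 12.83, 13.04, 13.08 and 12.88 in cortex. The PVCre groups stood apart, while the PV-tdTomato groups overlapped, with striatum replicates 3 and 4 as high as cortex. The log2 difference of Cdh11 was -0.82 over both lines (SE 0.2, adjusted p = 0.031) and -1.09 in PVCre (SE 0.29, adjusted p = 0.047). In PV-tdTomato it was -0.55 (adjusted p = 0.73). With 1 array left out, the call over both lines was lost in 8 of 16 fits (adjusted p up to 0.071) and the PVCre call in 12 of 16 (up to 0.14).

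Cdh22 was higher in striatum at low levels. It read 6.15, 6.26, 6.55 and 6.42 in PVCre striatum, against 5.97, 5.86, 5.8 and 6.09 in PVCre cortex. In PV-tdTomato cells Cdh22 read 7.43, 7.59, 6.58 and 6.71 in striatum, against 6.1, 5.92, 6.0 and 6.07 in cortex. Neither pair of groups overlapped, and both cortex means lay within the range of the background probe sets. The log2 difference was 0.73 over both lines (SE 0.14, adjusted p = 0.0041) and 1.05 in PV-tdTomato (SE 0.19, adjusted p = 0.0059), each against cortex arrays at background. In PVCre it was 0.42 (adjusted p = 0.32).

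Cdh13, or T-cadherin, is held on the membrane by a lipid anchor and has no cytoplasmic tail. It read 8.55, 9.52, 10.74 and 10.03 in PVCre striatum, against 7.83, 7.33, 8.88 and 7.23 in PVCre cortex. In PV-tdTomato cells Cdh13 read 11.2, 11.12, 10.14 and 10.46 in striatum, against 10.09, 9.49, 9.51 and 9.76 in cortex. The PV-tdTomato groups did not overlap, and in PVCre striatum replicate 1 lay under cortex replicate 3. Cdh13 had a log2 difference of 1.46 over both lines (SE 0.31, adjusted p = 0.011, 2.75-fold) and 1.9 in PVCre (SE 0.44, adjusted p = 0.024), with 1.02 in PV-tdTomato (adjusted p = 0.52). The PVCre call on Cdh13 was lost in 5 of 16 fits with 1 array left out (adjusted p up to 0.083). In PVCre cells, 4 of 8 endothelial and 5 of 6 mural markers were higher in striatum, with endothelial means of 7.06 to 9.29 in PVCre striatum against 6.07 to 6.38 in PVCre cortex. The part of these cells in the level of Cdh13 was not tested.

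**Figure D2:**
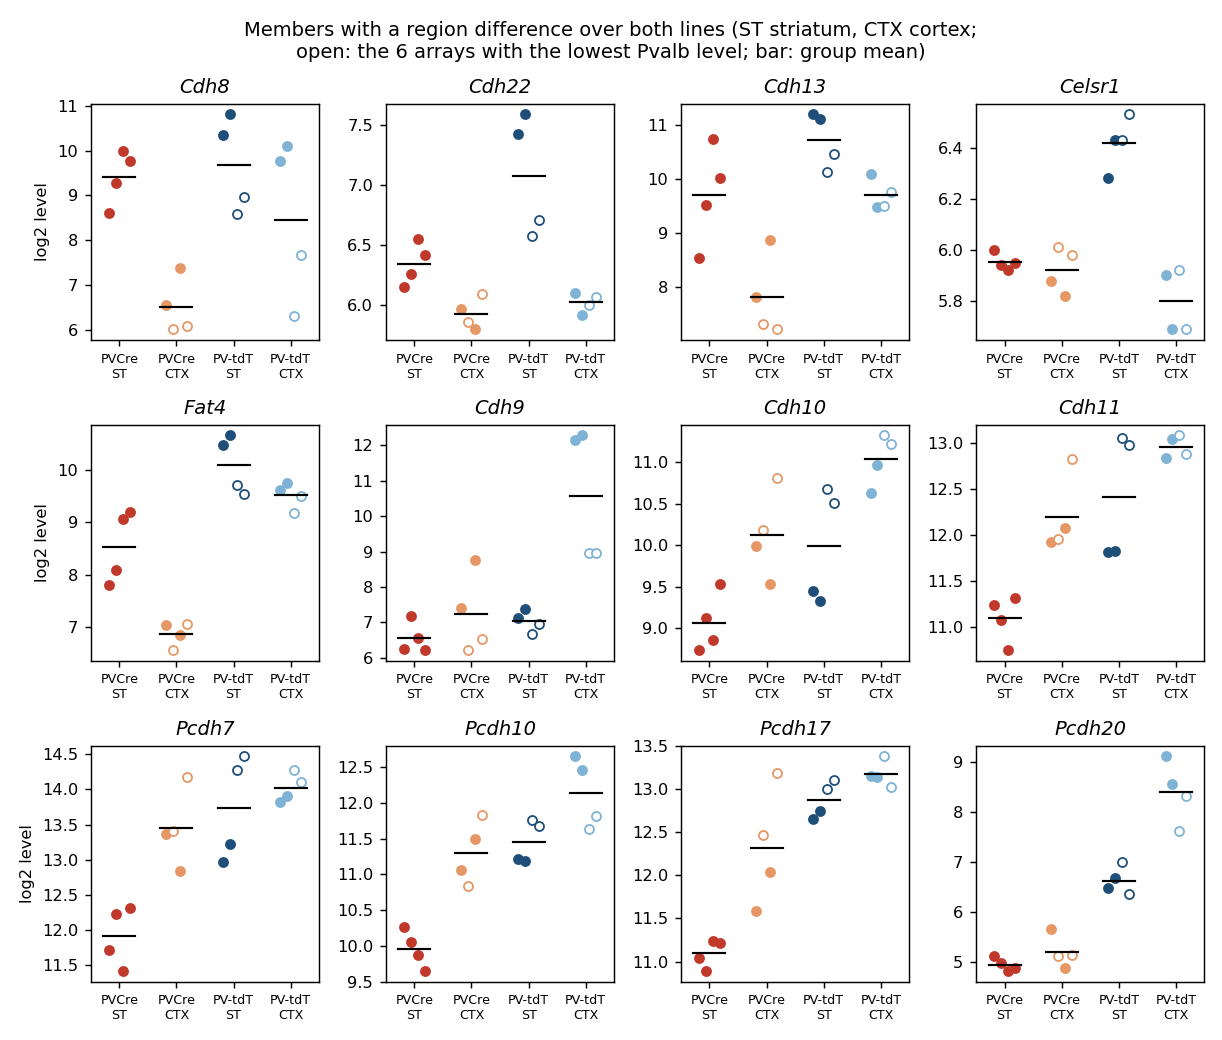
Log2 level of each of the 12 members called between striatum and cortex over both lines, 1 panel a gene, with every array as a point and the group mean as a bar, and open points for the 6 arrays with the lowest Pvalb. Cdh9 is highest on the 4 PV-tdTomato cortex arrays, at 8.95 to 12.28, and Cdh8 lies at 6.01 to 7.38 in PVCre cortex, under the 8.61 to 9.99 of PVCre striatum.

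Among the delta protocadherins, 3 of 8 were lower in striatum over both lines and none was higher. Of all genes, 0.955% were called lower there. Pcdh7, a delta-1 protocadherin, read 11.72, 12.23, 11.42 and 12.31 in PVCre striatum, against 13.37, 13.41, 12.84 and 14.18 in PVCre cortex. In PV-tdTomato cells Pcdh7 read 12.97, 13.22, 14.27 and 14.47 in striatum, against 13.82, 13.9, 14.27 and 14.11 in cortex. The PVCre groups did not overlap, and in PV-tdTomato the striatum arrays lay on both sides of the cortex arrays. For Pcdh7 the log2 difference was -0.91 over both lines (SE 0.24, adjusted p = 0.049) and -1.53 in PVCre (SE 0.34, adjusted p = 0.021, 2.89-fold). In PV-tdTomato it was -0.29 (adjusted p = 0.97) and not called. With 1 array left out, the first call was lost in 13 of 16 fits (adjusted p up to 0.11) and the second in 4 (up to 0.07).

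Pcdh10, or OL-protocadherin, recruits the WAVE complex and is needed for striatal axon tracts in mice. It read 10.26, 10.05, 9.87 and 9.65 in PVCre striatum, against 11.06, 10.84, 11.49 and 11.83 in PVCre cortex. In PV-tdTomato cells Pcdh10 read 11.21, 11.18, 11.76 and 11.68 in striatum, against 12.65, 12.46, 11.64 and 11.82 in cortex. The PVCre groups were separate, and the PV-tdTomato groups overlapped, with cortex replicates 3 and 4 close to striatum. The log2 difference of Pcdh10 was -1.02 over both lines (SE 0.18, adjusted p = 0.0033, 2.02-fold) and -1.35 in PVCre (SE 0.26, adjusted p = 0.0074). In PV-tdTomato it was -0.68 (adjusted p = 0.37) and not called. Both calls held in all 16 fits with 1 array left out.

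Pcdh17, known in mice at synapses of circuits between cortex and basal ganglia, read 11.04, 10.89, 11.24 and 11.21 in PVCre striatum, against 11.58, 12.47, 12.04 and 13.18 in PVCre cortex. In PV-tdTomato cells Pcdh17 read 12.65, 12.74, 13.0 and 13.1 in striatum, against 13.15, 13.14, 13.38 and 13.02 in cortex. The PVCre groups did not overlap, and PVCre striatum arrays lay within a narrow range. Pcdh17 had a log2 difference of -0.76 over both lines (SE 0.18, adjusted p = 0.022) and -1.22 in PVCre (SE 0.25, adjusted p = 0.011, 2.33-fold). In PV-tdTomato it was -0.3 (adjusted p = 0.93) and the groups overlapped. The call over both lines was lost in 4 of 16 fits with 1 array left out (adjusted p up to 0.055).

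Pcdh20 is a protocadherin outside the delta-1 and delta-2 groups. It read 5.12, 4.99, 4.83 and 4.89 in PVCre striatum, against 5.67, 5.12, 4.88 and 5.14 in PVCre cortex. In PV-tdTomato cells Pcdh20 read 6.49, 6.69, 7.0 and 6.37 in striatum, against 9.12, 8.57, 7.62 and 8.33 in cortex. All PV-tdTomato cortex arrays were above all PV-tdTomato striatum arrays, and both PVCre means lay within the background range. For Pcdh20 the log2 difference was -1.77 in PV-tdTomato (SE 0.26, adjusted p = 0.00085, 3.42-fold) and -1.01 over both lines (SE 0.18, adjusted p = 0.0032). In PVCre it was -0.25, with both means within the background range.

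Of the Celsr genes, Celsr1 alone was called over both lines. It read 6.0, 5.94, 5.92 and 5.95 in PVCre striatum, against 5.88, 6.01, 5.82 and 5.98 in PVCre cortex. In PV-tdTomato cells Celsr1 read 6.28, 6.43, 6.43 and 6.53 in striatum, against 5.9, 5.69, 5.92 and 5.69 in cortex. Only the PV-tdTomato striatum mean was above the background range. The log2 difference of Celsr1 was 0.61 in PV-tdTomato (SE 0.09, adjusted p = 0.0013) and 0.32 over both lines (SE 0.07, adjusted p = 0.0095). In PVCre it was 0.03 (adjusted p = 0.92) and the groups overlapped.

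Fat4, a giant cadherin of planar polarity and growth control, read 7.8, 8.1, 9.06 and 9.2 in PVCre striatum, against 7.04, 6.57, 6.86 and 7.07 in PVCre cortex. In PV-tdTomato cells Fat4 read 10.48, 10.66, 9.71 and 9.54 in striatum, against 9.62, 9.76, 9.18 and 9.5 in cortex. The PVCre groups did not overlap, and the PV-tdTomato groups did. Fat4 had a log2 difference of 1.12 over both lines (SE 0.22, adjusted p = 0.007, 2.18-fold) and 1.66 in PVCre (SE 0.32, adjusted p = 0.0065, 3.16-fold), with 0.58 in PV-tdTomato (adjusted p = 0.76). Its partner Dchs1 and the related Fat1 and Fat3 were not called between regions, and Fat3 had a log2 difference of 0.75 over both lines (adjusted p = 0.1).

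Taken within each line, the calls were of different genes. In PVCre, 7 of 31 members were called, 3 higher and 4 lower in striatum, where 3.96% of all genes were called, 2.9% higher and 1.06% lower. These were Cdh8, Cdh13 and Fat4, and Cdh11, Pcdh7, Pcdh10 and Pcdh17. The count in PVCre was 3 without PVCre striatum replicate 3 or cortex replicate 2 or 4, and 4 without striatum replicate 4 or cortex replicate 1. In PV-tdTomato, 4 of 31 were called, 2 higher and 2 lower, where 2.36% of all genes were called, 1.76% higher and 0.602% lower. Those were Cdh22 and Celsr1, and Cdh9 and Pcdh20. No member was called in both lines, although 26 of 31 had the same sign in both, the exceptions being Cdh12, Celsr2, Celsr3, Pcdh1 and Pcdh18. The share of all genes with the same sign in both lines is not given here, so the 26 cannot be read as particular to the members.

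The difference of the region effects between the lines was itself tested. It was past the threshold for 0 of 31 members in limma, where 0.199% of all genes were called, and 7 members had an unadjusted p under 0.05. They were Celsr1, Pcdh20, Cdh9, Pcdh17, Pcdh7, Fat4 and Cdh22. The share of all genes under that unadjusted p is not given here. PVCre minus PV-tdTomato, the region effects differed by 2.86 for Cdh9 (adjusted p = 0.46), by 1.53 for Pcdh20 (adjusted p = 0.17) and by -0.59 for Celsr1 (adjusted p = 0.14). Without PV-tdTomato cortex replicate 3 the difference for Pcdh20 was 1.79 (adjusted p = 0.018). A member called in one line and not in the other was therefore not shown to differ between the lines.

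**Figure D3:**
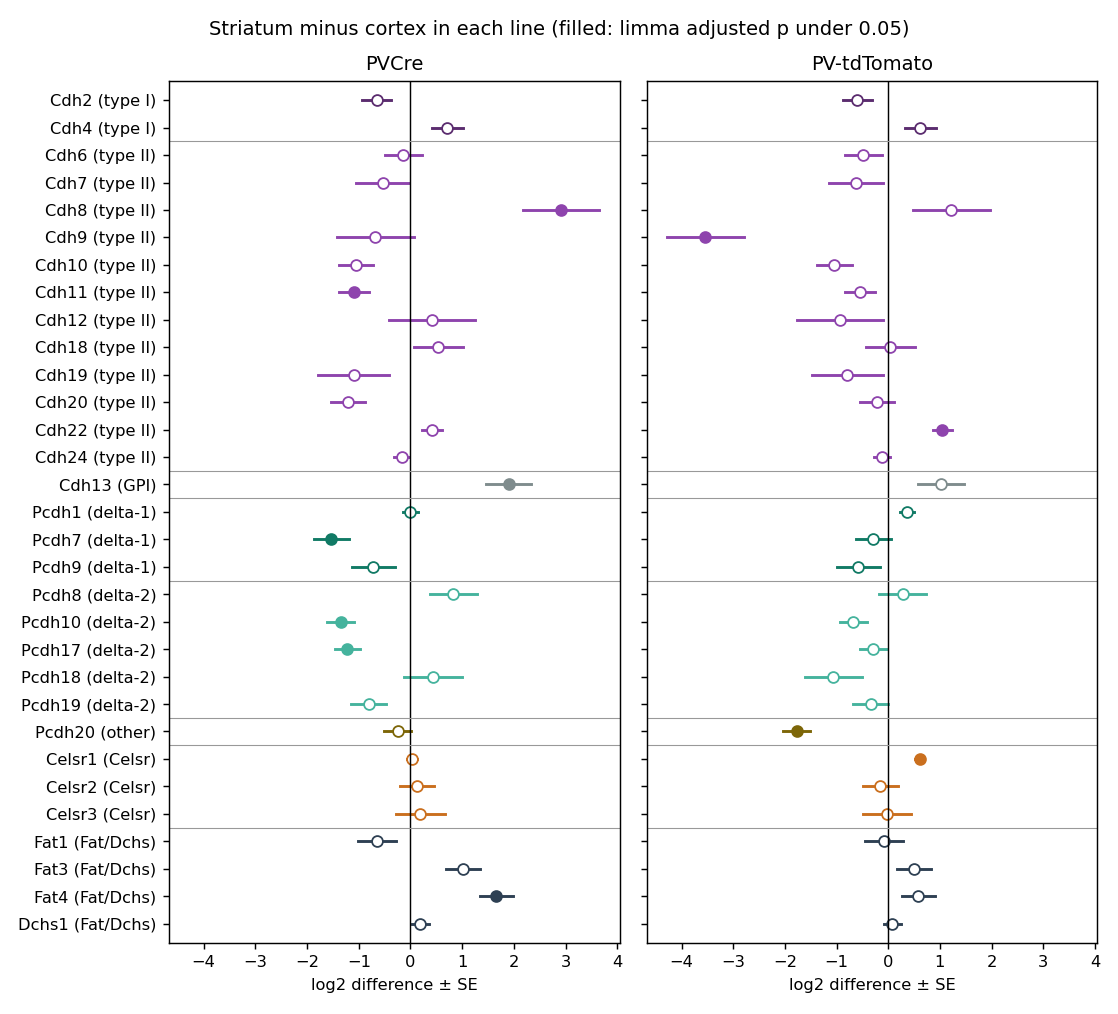
Log2 difference of striatum minus cortex for each of the 31 members in PVCre (left) and PV-tdTomato (right), with bars of the SE to either side. Points are filled where the adjusted p was under 0.05. In PVCre 7 members are filled and in PV-tdTomato 4, with no member filled in both panels.

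The region calls were run again without the 6 arrays with the lowest Pvalb, a choice made after seeing the data. Over both lines 16 members were then called, 3 higher and 13 lower in striatum, where 7.97% of all genes were called, 4.67% higher and 3.3% lower. Of these, 10 were also called on all 16 arrays. Cdh9 had a log2 difference of -3.24 (adjusted p = 0.00029), Pcdh10 of -1.34 (adjusted p = 0.00082) and Cdh22 of 0.98 (adjusted p = 0.00095). The call on Cdh13 was lost at 1.37 (adjusted p = 0.088), and that on Celsr1 at 0.33 (adjusted p = 0.051).

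Within PV-tdTomato, 10 members were called without those arrays, 2 higher and 8 lower in striatum, where 5.18% of all genes were, 3.28% higher and 1.9% lower. Cdh9 had a log2 difference of -4.95 (adjusted p = 0.00044) and Pcdh20 of -2.26 (adjusted p = 0.0021). Pcdh18, a delta-2 protocadherin that binds the adaptor Dab1, was added at -2.13 (adjusted p = 0.0032), and Pcdh10 at -1.36 (adjusted p = 0.01). Pcdh18 read 8.69 and 8.49 on PV-tdTomato cortex replicates 1 and 2, against 5.44 and 6.28 on replicates 3 and 4. Within PVCre, 6 members were called, 1 higher and 5 lower in striatum, where 3.51% of all genes were, 2.1% higher and 1.41% lower. Cdh13 (1.36, adjusted p = 0.27) and Fat4 (1.6, adjusted p = 0.056) no longer passed.

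In this smaller set the region effects of 2 members differed between the lines, where 0.761% of all genes did. The difference, PVCre minus PV-tdTomato, was 3.43 for Cdh9 (SE 0.58, adjusted p = 0.037) and 2.72 for Pcdh18 (SE 0.36, adjusted p = 0.012). The PVCre cortex then had 2 arrays, as did both PV-tdTomato groups. When only PVCre cortex replicates 2 and 4 were left out, Pcdh10 was the one member still called in PVCre (-1.32, adjusted p = 0.047), and Cdh8 had 2.45 with an adjusted p of 0.39. Gad1, the main enzyme of GABA synthesis, read 8.88 and 7.4 on these 2 arrays and 11.63 and 13.66 on PVCre cortex replicates 1 and 3.

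Markers of other interneurons moved with the PV-tdTomato region difference. Their mean over 10 markers was 7.95 to 8.31 in PV-tdTomato striatum against 9.82 to 12.04 in PV-tdTomato cortex, and 6 of the 10 were lower in striatum. In PVCre it was 6.2 to 7.02 in striatum against 6.03 to 6.97 in cortex, and 0 of the 10 were called. Cdh9 and Pcdh20 were highest on the same 4 PV-tdTomato cortex arrays. The part of other interneurons in the levels of Cdh9 and Pcdh20 was not tested.

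**Figure D4:**
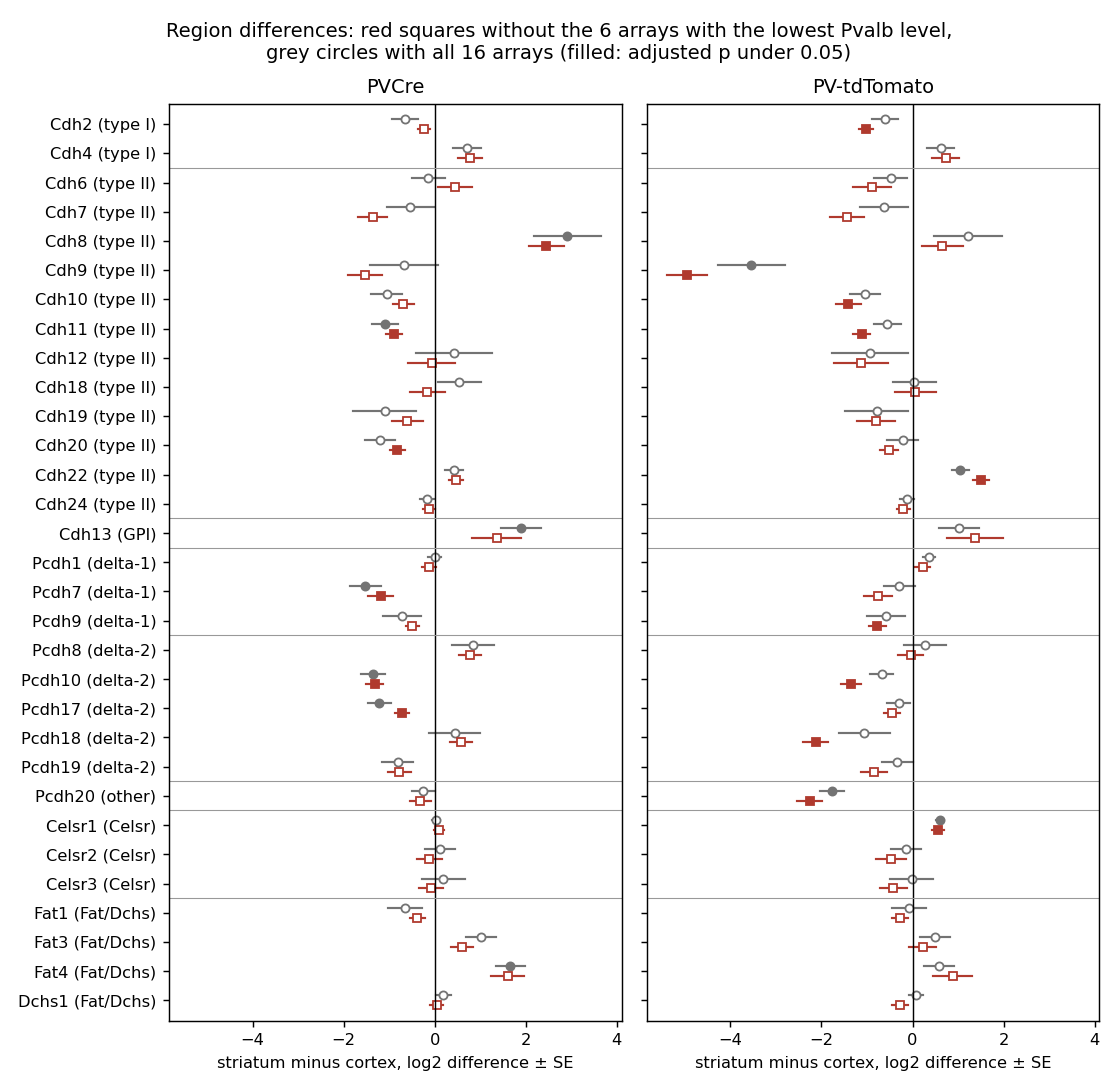
Log2 difference of striatum minus cortex for each of the 31 members in PVCre (left) and PV-tdTomato (right), with bars of the SE to either side. Red squares are from the 10 arrays left without the 6 with the lowest Pvalb and grey circles from all 16, filled where the adjusted p was under 0.05. In PV-tdTomato, Cdh9 lies at -4.95 without the 6 arrays and at -3.54 with all 16. In PVCre, Cdh8 lies at 2.45 and 2.91.

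Between the lines, most members were lower in PVCre. In striatum 22 of 31 members were called, 1 higher and 21 lower in PVCre, where 53.4% of all genes were called, 18.1% higher and 35.3% lower. In cortex it was again 1 higher and 21 lower, where 53.6% of all genes were called, 19.0% higher and 34.6% lower. Of the members, 17 were lower in both regions, and the share of all genes lower in both is not given here. Cdh22, Celsr1, Pcdh7 and Pcdh19 were called lower in striatum alone, and Cdh8, Cdh9, Cdh13 and Pcdh18 in cortex alone. The median log2 difference over the members was -1.11 in either region, and -0.23 over all genes. Without the 6 arrays with the lowest Pvalb, 26 members were lower and 2 higher in striatum, where 56.2% of all genes were called, 16.8% higher and 39.4% lower. In cortex 23 members were then lower and 2 higher, where 46.5% of all genes were called, 17.0% higher and 29.5% lower. The labels give no batch, so line and any unrecorded batch cannot be told apart.

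A measure of array quality also followed the line. The median of positive control probe sets minus that of negative ones, the control separation, was 3.08 to 3.93 on PVCre arrays against 4.16 to 4.84 on PV-tdTomato arrays, with no overlap. With this measure as a covariate, 12 members were lower in striatum and 11 in cortex, and 0 were higher in either. The share of all genes called under this covariate is not given here, so these counts cannot be set against it. Cdh2, Cdh10, Cdh20, Cdh24, Pcdh1, Pcdh20, Fat1 and Dchs1 were called in both regions under it. When the values were quantile normalized again, which moved the median of all genes to -0.02 in striatum and 0.02 in cortex, 16 members were lower and 1 higher in each region. Of the 20095 genes tested, 4817 were then lower and 4760 higher in striatum, and 4783 lower and 5218 higher in cortex. Under that scaling 49.7% of all calls in striatum were higher in PVCre, against 33.9% without it, and in cortex 52.2% against 35.4%.

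Of the type I cadherins, both were lower in PVCre. Cdh2, or N-cadherin, the main classical cadherin of neurons, read 9.88, 10.06, 10.03 and 10.26 in PVCre striatum, against 11.58, 11.56, 12.29 and 12.32 in PV-tdTomato striatum. In cortex Cdh2 read 10.38, 10.51, 10.21 and 11.71 in PVCre, against 12.52, 12.66, 12.46 and 12.51 in PV-tdTomato. The lines did not overlap in either region, and the log2 difference of Cdh2 was -1.88 in striatum (adjusted p = 6.8e-05) and -1.83 in cortex (adjusted p = 8.8e-05). Cdh4, or R-cadherin, read 5.8, 6.24, 6.8 and 6.48 in PVCre striatum, against 8.77, 8.59, 7.46 and 7.82 in PV-tdTomato striatum. In cortex Cdh4 read 5.63, 5.73, 5.49 and 5.64 in PVCre, against 8.16, 7.74, 7.09 and 7.19 in PV-tdTomato. The lines were separate in both regions, and the PVCre cortex mean lay within the background range. For Cdh4 the log2 difference was -1.83 in striatum (adjusted p = 0.00018) and -1.92 in cortex (adjusted p = 0.00013).

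Among the type II cadherins, 6 of 12 were lower in PVCre in striatum and 7 of 12 in cortex. Cdh6 read 8.05, 8.64, 8.88 and 8.95 in PVCre striatum, against 9.8, 9.94, 10.1 and 10.24 in PV-tdTomato striatum. In cortex Cdh6 read 8.83, 8.84, 7.56 and 9.83 in PVCre, against 10.49, 11.01, 10.14 and 10.35 in PV-tdTomato. The lines did not overlap, with log2 differences for Cdh6 of -1.39 in striatum (adjusted p = 0.0051) and -1.73 in cortex (adjusted p = 0.0011). Cdh20 read 11.04, 11.26, 11.48 and 11.61 in PVCre striatum, against 12.9, 12.67, 13.96 and 14.05 in PV-tdTomato striatum. In cortex Cdh20 read 12.19, 12.62, 12.14 and 13.26 in PVCre, against 13.21, 13.42, 13.98 and 13.88 in PV-tdTomato. The lines were separate in striatum and overlapped slightly in cortex, with log2 differences for Cdh20 of -2.05 (adjusted p = 0.00013) and -1.07 (adjusted p = 0.013). Cdh20 was highest on PV-tdTomato replicates 3 and 4, as were the markers of oligodendrocyte precursors, whose mean was 11.87 to 12.72 there and 8.88 to 9.81 on PV-tdTomato replicates 1 and 2. The part of these cells in the level of Cdh20 was not tested.

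Cdh24 was low throughout. It read 6.09, 5.94, 5.91 and 6.11 in PVCre striatum, against 6.66, 6.71, 7.31 and 6.99 in PV-tdTomato striatum. In cortex Cdh24 read 6.12, 6.12, 6.14 and 6.35 in PVCre, against 7.04, 6.74, 7.2 and 7.16 in PV-tdTomato. The lines did not overlap, and the log2 difference of Cdh24 was -0.91 in striatum (adjusted p = 0.00015) and -0.85 in cortex (adjusted p = 0.00024). For members whose arrays are given above, the line differences in cortex were -3.35 for Cdh9 (SE 0.74, adjusted p = 0.0016, 10.2-fold), -1.96 for Cdh8 (adjusted p = 0.036) and -1.9 for Cdh13 (adjusted p = 0.0022). Of these, only Cdh8 had overlapping lines, and its call was lost in 5 of 16 fits with 1 array left out (adjusted p up to 0.12). With control separation as a covariate the difference of Cdh8 in cortex turned to 0.25 (adjusted p = 0.89).

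Cdh10 was lower in PVCre by a log2 difference of -0.93 in striatum (adjusted p = 0.028) and of -0.91 in cortex (adjusted p = 0.031), with overlapping arrays. Leaving out 1 array ended these calls on Cdh10 in 4 and in 6 of 16 fits, at adjusted p up to 0.091 and 0.093. Cdh11 differed by -1.32 in striatum (adjusted p = 0.0015) and by -0.77 in cortex (adjusted p = 0.034), the call in cortex being lost in 7 of 16 fits (adjusted p up to 0.089). Cdh22 differed by -0.73 in striatum (adjusted p = 0.0054), with lines that stood just apart.

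Cdh19, a cadherin known from glia derived from the neural crest, was the one member called higher in PVCre. It read 11.14, 10.09, 10.01 and 10.06 in PVCre striatum, against 7.49, 7.38, 9.48 and 9.84 in PV-tdTomato striatum. In cortex Cdh19 read 11.24, 11.12, 10.61 and 12.74 in PVCre, against 7.9, 8.56, 10.6 and 10.3 in PV-tdTomato. Every PVCre array was above every PV-tdTomato array of its region, and within PV-tdTomato replicates 3 and 4 were above 1 and 2 in both regions. The log2 difference of Cdh19 was 1.78 in striatum (SE 0.69, adjusted p = 0.042, 3.43-fold) and 2.09 in cortex (SE 0.69, adjusted p = 0.02, 4.25-fold).

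Cdh19 was set beside the oligodendrocyte markers, whose means are given above. Of the 9 markers, 4 were called higher in PVCre in striatum and 6 in cortex. With their mean as a covariate the log2 difference of Cdh19 was 0.67 in striatum (adjusted p = 0.1) and 0.54 in cortex (adjusted p = 0.23). The calls were also lost in 8 of 16 fits with 1 array left out in striatum (adjusted p up to 0.12) and in 3 in cortex (up to 0.071). With control separation as a covariate the difference of Cdh19 in striatum turned to -0.25 (adjusted p = 0.89). Without the 6 arrays with the lowest Pvalb the differences were 2.89 (adjusted p = 0.0003) and 2.69 (adjusted p = 0.0011). The oligodendrocyte mean was lower on PV-tdTomato replicates 1 and 2 than on every PVCre array. As a covariate it cannot be fully told apart from line. The part of oligodendrocytes in the level of Cdh19 was not tested.

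Of the delta protocadherins, 5 of 8 were lower in PVCre in striatum and 4 of 8 in cortex. Pcdh1, a delta-1 protocadherin, read 7.18, 7.16, 7.48 and 7.3 in PVCre striatum, against 8.88, 8.69, 8.76 and 8.7 in PV-tdTomato striatum. In cortex Pcdh1 read 7.36, 6.94, 7.47 and 7.37 in PVCre, against 8.74, 8.38, 8.3 and 8.16 in PV-tdTomato. The arrays of each line lay close together and the lines did not overlap. Pcdh1 had a log2 difference of -1.47 in striatum (adjusted p = 2e-06, 2.78-fold) and -1.11 in cortex (adjusted p = 2.3e-05).

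Pcdh19, an X-linked protocadherin whose loss causes an epilepsy of females, read 8.61, 8.07, 8.24 and 8.2 in PVCre striatum, against 9.55, 9.67, 9.02 and 9.3 in PV-tdTomato striatum. In cortex Pcdh19 read 8.64, 9.15, 9.49 and 9.07 in PVCre, against 10.66, 10.24, 9.32 and 8.69 in PV-tdTomato. The lines were separate in striatum and overlapped in cortex, and the log2 difference in striatum was -1.1 (adjusted p = 0.013). Pcdh18 read 5.67, 6.26, 5.53 and 5.82 in PVCre striatum, against 6.78, 6.13, 5.68 and 6.08 in PV-tdTomato striatum. In cortex Pcdh18 read 5.34, 5.81, 5.13 and 5.23 in PVCre, against the 4 PV-tdTomato values given above. It was close to background except on PV-tdTomato cortex replicates 1 and 2, with a log2 difference in cortex of -1.85 (adjusted p = 0.013).

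Among the delta protocadherins given above, the line difference in striatum was -1.81 for Pcdh7 (adjusted p = 0.00054), -1.5 for Pcdh10 (adjusted p = 0.00027) and -1.78 for Pcdh17 (adjusted p = 4.9e-05). In cortex Pcdh10 differed by -0.84 (adjusted p = 0.014) and Pcdh17 by -0.86 (adjusted p = 0.01), with overlapping arrays. The cortex call on Pcdh10 was lost in 2 of 16 fits with 1 array left out (adjusted p up to 0.052). Pcdh20 differed by -1.68 in striatum (adjusted p = 9.9e-05) and by -3.21 in cortex (SE 0.26, adjusted p = 5.4e-07), with no overlap in either region and PVCre arrays at background in both. Pcdh9, a delta-1 protocadherin, was not called. Its log2 difference was 0.73 in striatum (adjusted p = 0.15) and 0.86 in cortex (adjusted p = 0.094), and it was higher on PV-tdTomato replicates 3 and 4 (14.5 to 15.23) than on 1 and 2 (12.87 to 13.75). Without the 6 arrays with the lowest Pvalb, Pcdh9 was higher in PVCre by 1.53 in striatum (adjusted p = 0.00015) and 1.25 in cortex (adjusted p = 0.00086).

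All 3 Celsr genes were lower in PVCre in striatum, and Celsr2 and Celsr3 also in cortex. Celsr2 read 7.51, 7.78, 8.13 and 7.8 in PVCre striatum, against 10.55, 9.99, 9.72 and 9.7 in PV-tdTomato striatum. In cortex Celsr2 read 7.53, 7.47, 8.33 and 7.41 in PVCre, against 11.04, 10.46, 9.74 and 9.33 in PV-tdTomato. No PVCre array reached a PV-tdTomato array of its region, and the log2 difference of Celsr2 was -2.18 in striatum (adjusted p = 8.6e-05, 4.55-fold) and -2.46 in cortex (adjusted p = 3.4e-05, 5.49-fold). Celsr3, needed for the major forebrain axon tracts in mice, read 6.6, 7.27, 6.91 and 7.01 in PVCre striatum, against 9.69, 9.36, 8.28 and 8.44 in PV-tdTomato striatum. In cortex Celsr3 read 6.65, 6.52, 7.43 and 6.43 in PVCre, against 10.11, 9.78, 8.0 and 7.97 in PV-tdTomato. The lines did not overlap, with log2 differences for Celsr3 of -1.99 (adjusted p = 0.0025) and -2.21 (adjusted p = 0.0013). Celsr1 differed by -0.47 in striatum (adjusted p = 0.00082).

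The 3 Fat genes and Dchs1 were lower in PVCre in both regions. Dchs1, the Dachsous ligand of Fat4, read 6.17, 6.37, 6.52 and 6.33 in PVCre striatum, against 8.03, 7.94, 8.65 and 8.28 in PV-tdTomato striatum. In cortex Dchs1 read 6.13, 6.01, 6.5 and 5.99 in PVCre, against 8.34, 8.2, 7.97 and 8.09 in PV-tdTomato. Arrays of a group lay close together, and the log2 difference of Dchs1 was -1.87 in striatum (SE 0.16, adjusted p = 8.1e-07, 3.67-fold) and -1.99 in cortex (SE 0.16, adjusted p = 5.8e-07, 3.97-fold). The PVCre arrays, at 5.99 to 6.52, lay close to background.

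Fat1 read 8.18, 8.49, 8.58 and 8.76 in PVCre striatum, against 10.1, 10.06, 11.6 and 11.49 in PV-tdTomato striatum. In cortex Fat1 read 8.94, 9.26, 8.82 and 9.57 in PVCre, against 10.4, 10.32, 11.47 and 11.38 in PV-tdTomato. The lines did not overlap, and PV-tdTomato replicates 3 and 4 were above 1 and 2. For Fat1 the log2 difference was -2.31 in striatum (SE 0.37, adjusted p = 0.00014, 4.97-fold) and -1.74 in cortex (adjusted p = 0.0013). Fat3, which shapes the dendrites of amacrine cells in the mouse retina, read 7.58, 8.27, 8.39 and 8.56 in PVCre striatum, against 9.4, 9.72, 9.21 and 8.93 in PV-tdTomato striatum. In cortex Fat3 read 7.62, 6.34, 7.58 and 7.21 in PVCre, against 9.22, 9.45, 8.22 and 8.39 in PV-tdTomato. The lines were separate, with log2 differences for Fat3 of -1.11 (adjusted p = 0.012) and -1.63 (adjusted p = 0.00094). With control separation as a covariate the difference of Fat3 in striatum turned to 0.06 (adjusted p = 0.94). Fat4, whose arrays are given above, differed by -1.55 in striatum (adjusted p = 0.0009) and by -2.63 in cortex (adjusted p = 1.3e-05, 6.19-fold), again with no overlap.

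**Figure D5:**
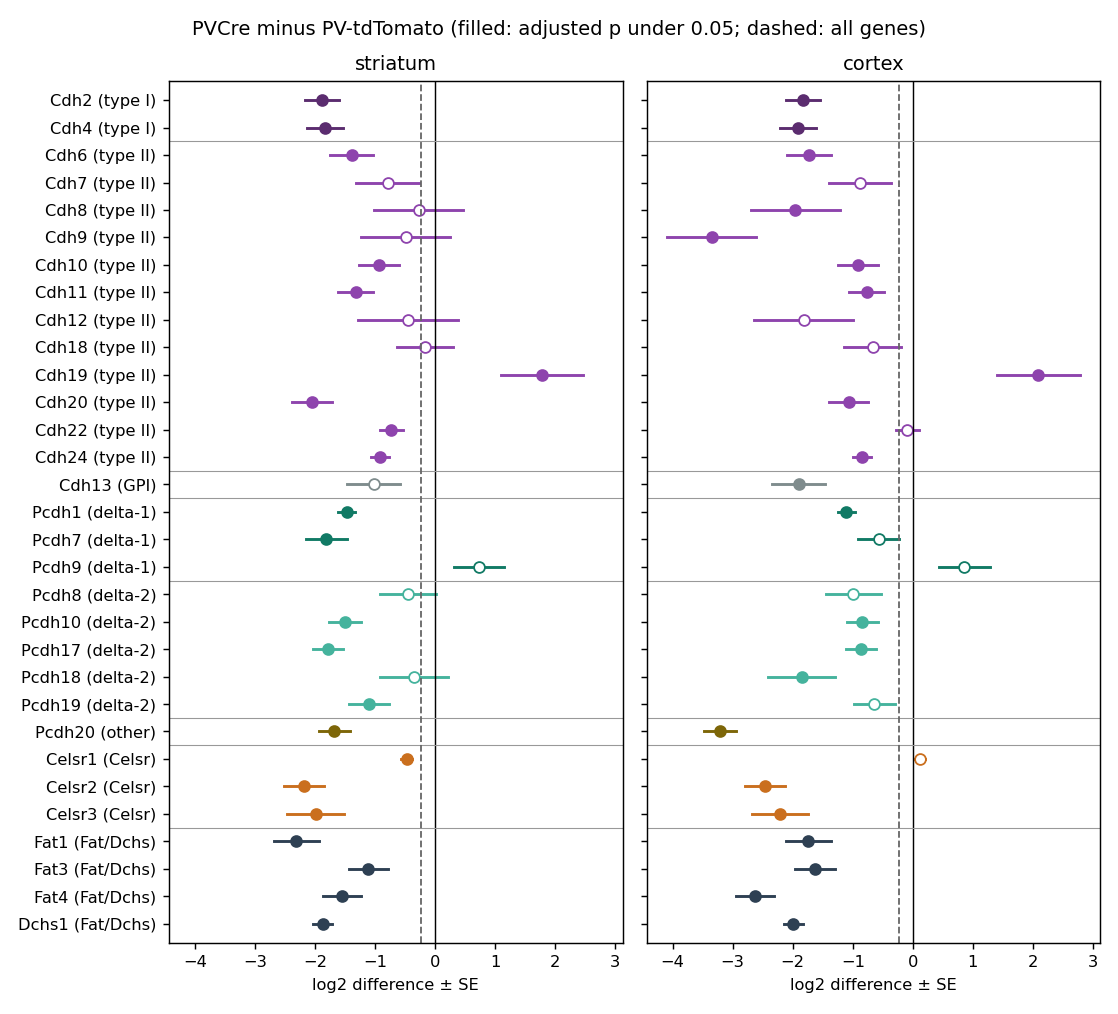
Log2 difference of PVCre minus PV-tdTomato for each of the 31 members in striatum (left) and cortex (right), with bars of the SE to either side. Points are filled where the adjusted p was under 0.05, and a dashed line marks the median of all genes, -0.23 in each. Most members lie left of the dashed line, from -2.31 for Fat1 in striatum and -3.35 for Cdh9 in cortex, and Cdh19 lies right of it.

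Microglial markers also differed between the lines. All 7 were higher in PVCre in both regions, with means of 7.73 to 8.99 in PVCre striatum against 5.5 to 5.84 in PV-tdTomato striatum, and of 7.5 to 9.71 in PVCre cortex against 5.39 to 5.91 in PV-tdTomato cortex. Markers of other interneurons were lower in PVCre cortex for 10 of 10. The part of either in the member differences was not tested.

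On all 16 arrays, the members called in no comparison were Cdh7, Cdh12, Cdh18 and Pcdh8 besides Pcdh9. Cdh12 ranged from 6.62 to 8.86 in PVCre striatum and from 6.97 to 8.33 in PVCre cortex. In PV-tdTomato, Cdh12 ranged from 7.02 to 9.67 in striatum and from 7.37 to 10.84 in cortex, with replicates 1 and 2 above replicates 3 and 4. Pcdh8, or arcadlin, a protocadherin induced by neuronal activity, had the same order, from 7.39 to 8.97 in PV-tdTomato striatum and from 6.91 to 8.87 in PV-tdTomato cortex. Cdh7 ranged from 5.98 to 8.59 in PVCre cortex, and Cdh18 from 6.64 to 8.73 there, with replicate 3 highest and replicate 4 lowest for both. Without the 6 arrays with the lowest Pvalb, Cdh7 was lower in striatum over both lines by a log2 difference of -1.4 (adjusted p = 0.0097), against -0.59 on all 16. Without them Cdh7 was also lower in PVCre in striatum at -0.93 (adjusted p = 0.034). Cdh12 was then lower in PVCre at -1.73 in striatum (adjusted p = 0.018) and -2.8 in cortex (adjusted p = 0.0052). Pcdh8 was likewise lower at -1.09 in striatum (adjusted p = 0.0051) and -1.9 in cortex (adjusted p = 0.00095).

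Classical cadherins and delta protocadherins were set side by side. Of all genes tested, 3.37% were called higher and 0.955% lower in striatum over both lines. In PVCre these shares were 2.9% and 1.06%, and in PV-tdTomato 1.76% and 0.602%. Over both lines, 2 of 14 classical cadherins were higher and 3 lower in striatum, with a median log2 difference of -0.45. Of the 8 delta protocadherins, 0 were higher and 3 lower, with a median of -0.61. In PVCre 1 classical cadherin was higher and 1 lower, with a median of -0.36, and 3 delta protocadherins were lower, with a median of -0.76. In PV-tdTomato 1 classical cadherin was higher and 1 lower, with a median of -0.51, and 0 delta protocadherins were called in limma, with a median of -0.32 and 2 at an unadjusted p under 0.05 (Pcdh1 and Pcdh10).

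Between the lines, members of both subfamilies were lower in PVCre, where 35.3% of all genes were called lower in striatum and 34.6% in cortex. In striatum 8 of 14 classical cadherins were lower and 1 higher, with a median log2 difference of -0.85, and 5 of 8 delta protocadherins were lower, with a median of -1.29. In cortex 9 of 14 classical cadherins were lower and 1 higher, with a median of -0.99, and 4 of 8 delta protocadherins were lower, with a median of -0.85. No test was made between the subfamilies, whose genes are not replicates.

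Partners of these proteins were also compared between regions. Of 17 catenins and junction partners tested, 0 were higher and 2 lower in striatum over both lines, where 3.37% of all genes were called higher and 0.955% lower. Nectin3, an adhesion protein of the same junctions, had a log2 difference of -0.72 (adjusted p = 0.0042) and Nectin1 of -1.24 (adjusted p = 0.01). In PVCre, Vcl, which encodes the actin linker vinculin, was higher by 0.92 (adjusted p = 0.042). None of the 8 WAVE complex genes was called in limma over both lines, and 0 had an unadjusted p under 0.05. None of the 11 planar polarity partners was called, and 1, Prickle1, had an unadjusted p under 0.05.

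Between the lines, the counts of partners stand beside 35.3% of all genes called lower in PVCre in striatum and 34.6% in cortex. Of the WAVE genes, 7 of 8 were lower in each region, with a median log2 difference of -1.32 in striatum and -0.94 in cortex. Nckap1, a core subunit, differed by -1.68 in striatum (adjusted p = 4.9e-06) and Cyfip2, another, by -3.12 (adjusted p = 1e-05). Of the planar polarity partners, 7 of 11 were lower in each region, among them Dvl3, a Dishevelled protein, by -2.33 in striatum (adjusted p = 2.4e-06). Of the catenins and junction partners, 6 of 17 were lower and 1 higher in striatum, and 9 were lower and 1 higher in cortex. The neuronal catenin Ctnna2 differed by -0.77 in striatum (adjusted p = 0.00033), while Ctnna3 was higher by 1.03 (adjusted p = 0.00054).

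Other genes of the cadherin superfamily outside the 31 were read as well. Of 20 listed, 10 passed the filter on low levels and were tested. Of these 10, 3 were higher in striatum over both lines and 0 lower. Of all genes, 3.37% were called higher and 0.955% lower. Cdhr3, a cadherin of ciliated cells, had a log2 difference of 2.51 (adjusted p = 2.3e-07), Dsc3, a desmosomal cadherin, of 0.94 (adjusted p = 1e-05) and Pcdh15, a cadherin of hair cell tip links, of 1.39 (adjusted p = 0.044). The higher level of Cdhr3 stood beside the higher ependymal markers given above, whose part in it was not tested.

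Several members are neighbours on a chromosome in GRCm38.p6. Cdh6, Cdh9, Cdh10, Cdh12 and Cdh18 follow each other on chromosome 15 with 0 protein-coding genes between them. Of these 5, Cdh9 and Cdh10 were called lower in striatum over both lines, and Cdh6, Cdh12 and Cdh18 were not called. Cdh8 and Cdh11, next to each other on chromosome 8 with 0 protein-coding genes between them, were called in opposite directions. Pcdh20 and Pcdh9, neighbours on chromosome 14, differed as well: between the lines Pcdh20 was lower in PVCre in both regions, while Pcdh9 was not called.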

How the data were processed

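Sorted reporter-positive cells were profiled on 16 Affymetrix arrays, 4 in each of 4 groups. The values deposited by the authors are log2 levels; the submitters' processing notes name RMA and the Affymetrix Expression Console as tools. For the software version, the array batches and the genome build of the clusters, nothing is given in the sources used here. Levels are relative to the other genes of an array. The deposited arrays did not share a single distribution, as their medians lay between 5.97 and 6.13. Quantile normalizing again moved the median line difference of all genes in striatum from -0.23 to -0.02. The deposited table held 72688 probe sets, of which 6732 were controls and 65956 transcript clusters. GEO's platform annotation gave 30604 clusters 1 gene, 2146 several and none listed for 33206. The symbols of 827 were updated, and where a gene had several clusters (355 genes) the one with the highest mean was used.

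The 33.3% of genes with the lowest mean (under 5.531) were left out, and 20095 genes were tested with limma 3.58.1 under R 4.3.3, in a single fit of the 16 arrays by lmFit with a mean for each group, moderated by eBayes. P-values were adjusted by Benjamini-Hochberg over all genes tested, with a threshold of 0.05. Striatum was compared with cortex over both lines and then line by line, PVCre with PV-tdTomato region by region, and the region effects of the lines with each other. Calls refer to this threshold, and SE is the standard error of a difference. The fit was tested on simulated data. Files were read with Python 3.11.15 (pandas 2.3.3), and figures drawn with matplotlib 3.10.9.

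Every member was accounted for; those past the threshold in any region or line comparison were described with every array's value, in the order of their roles, and the rest by their ranges. The members and all lists were chosen with earlier results of these data known. Replicates are pools of sorted cells, so p-values measure the spread between pools, and precision is limited by the number of arrays. No 2 arrays held identical values.

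Replicate numbers of the titles were checked for pairing by the correlation of deviations from group means over genes. In PV-tdTomato the striatum and cortex arrays of a number had r of 0.758, 0.582, 0.701 and 0.625. There the best match of striatum replicates 1 and 2 was cortex replicate 1, and that of replicates 3 and 4 was cortex replicate 3. These correlations set replicates 1 and 2 apart from 3 and 4, and did not show pairs by number. In PVCre r was -0.00711, 0.287, 0.691 and -0.293. The main fit used no pairs, and the number served only as a block in an alternative. The alternatives were other filters, scalings, priors, weights, blocks and covariates, and leaving out arrays. Omission of the 6 arrays lowest in Pvalb, omission of PVCre cortex replicates 2 and 4, and the covariates of control separation and Xist were added after seeing the data. The motif CCAAT was also chosen after the promoters were seen. Promoters came from RefSeq (GRCm38.p6), where 23 of the 31 members matched by symbol.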

Additional observations from a re-analysis of the deposited data

Results flagged for a closer look

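In each group of 4 arrays, the gap between the highest or lowest array and its nearest neighbour was set against the range of the group. This singled out 5 of the 124 combinations of member and group, no more than the about 1 in 20 that chance singles out. All 5 were the highest array of a PVCre group.

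PVCre cortex replicate 4 was singled out for 3 members. Cdh11 read 12.82 there and 11.92 to 12.07 on the others, Pcdh9 read 15.83 against 14.98 to 15.08, and Cdh24 read 6.35 against 6.12 to 6.14. For Cdh24 the gap was small and the levels were close to background. The same array had the lowest Pvalb of all 16, at 6.7, and the highest oligodendrocyte marker mean, at 15.65. Celsr2 stood out on PVCre cortex replicate 3, at 8.33 against 7.41 to 7.53, the array with the highest Pvalb, at 12.48. Cdh19 stood out on PVCre striatum replicate 1, at 11.14 against 10.01 to 10.09, the array with the highest endothelial marker mean, at 9.29. Within PVCre striatum that array also had the highest oligodendrocyte (14.96), mural (8.9), microglial (8.99) and astrocyte (7.41) means. Its Pvalb, at 10.2, was the lowest of that group. The part of these markers in the readings was not tested.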

How the results depend on the processing

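Between regions over both lines, 12 members were called, and 10 to 16 under 10 of 14 other settings. The count was 21 with array weights, 20 with a replicate block, 7 with a minimum log2 difference of 1 and 7 without PVCre cortex replicates 2 and 4. In PV-tdTomato (4 called) it was 12 with array weights, 2 with only the arrays compared, 10 without the 6 arrays with the lowest Pvalb and 5 with the replicate block. In PVCre (7 called) it was 11 with array weights, 12 with the replicate block and 1 without PVCre cortex replicates 2 and 4. Between the lines (22 called in each region) it was 12 in striatum and 11 in cortex with control separation as a covariate, and 21 and 19 with the replicate block. The difference of region effects (0 called) gave 2 without the 6 arrays. Within and between the lines, shares of all genes called under these settings are not given here, except for the fit without the 6 arrays. A rise or fall of those counts therefore cannot be read as particular to the members. The block rests on the replicate number alone, which the correlations between arrays did not show to pair them.

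With 1 array left out, the counts ranged from 7 to 12 over both lines, with 7 without PV-tdTomato striatum replicate 1 or 2. They were 3 to 4 in PV-tdTomato. In PVCre they were 3 to 8, with 3 without PVCre striatum replicate 3 or cortex replicate 2 or 4, and 4 without striatum replicate 4 or cortex replicate 1. Between the lines they were 20 to 23 in striatum and 18 to 23 in cortex, and for the difference of region effects 0 to 1.

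Reversals were seen for 4 line differences. Cdh12 in striatum was 0.9 with the oligodendrocyte covariate. With control separation as a covariate, Cdh19 in striatum was -0.25, Fat3 in striatum 0.06 and Cdh8 in cortex 0.25; the values of this covariate do not overlap between lines. Otherwise, single called differences kept direction and call in 1855 fits and lost the call in 203, and uncalled ones became called in 93. Array weights and the replicate block also raised the count over all genes, over both lines to 3298 higher and 2377 lower with weights and to 1145 and 920 with the block, against 677 and 192. Quantile normalization again turned the share of higher calls among all genes from 33.9% to 49.7% in striatum and from 35.4% to 52.2% in cortex between the lines. Centring on array medians turned it from 77.9% to 67.1% over both lines between regions, with members at 5 higher and 7 lower as before. The causes of these changes were not tested. Members near background (Celsr1, Cdh22, Cdh24, Pcdh18, Pcdh20) are limited by signal over background. So are Cdh4 in PVCre cortex and Dchs1 in PVCre.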
